A study of Arabidopsis thaliana with 6 samples.

Results

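Serine carboxypeptidase-like (SCPL) genes were described in microdissected root meristems of Arabidopsis thaliana, in plants carrying 35S:miR396 and in wild-type (WT) plants. The members are the 29 probe sets whose annotation symbol is scpl followed by a number, each with 1 gene, out of 22746 probe sets on the array other than controls. The gene table of assembly TAIR10.1 holds 51 numbered genes of the family, so the 29 are a part of it. Of the 29, 16 had 3 or more of the 6 arrays at or over a log2 value of 4 and entered the test, and 13 did not. Another 2 probe sets carry an scpl symbol together with a second gene and were left out.

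The samples were 3 arrays of 35S:miR396 roots, labelled miR396 overexpression, and 3 arrays of WT roots, labelled biological replicates in each group. In 35S:miR396 the strong, broadly active 35S promoter of a plant virus drives the microRNA; its level was not measured here. All 6 samples share an age of 7 days after sowing, long days with 16 h of light at 21 °C, upright plates with 1% sucrose and no treatment. The labels give neither the number of lines or plants behind a sample nor how the plants of 1 replicate were kept apart, so a p-value here weighs a difference against the spread of these samples alone, which may be technical. With 3 arrays a group, precision is limited throughout.

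SCPL proteins share the fold and the catalytic serine of carboxypeptidases, enzymes that take single amino acids off the end of a protein. Some members are true proteases of the vacuole or the secreted space, and others have become acyltransferases, which use glucose esters as donors to build compounds such as sinapate esters. The best known plant members are SNG1 and SNG2, acyltransferases of sinapate ester synthesis, and BRS1, a secreted member tied to brassinosteroid signalling. None of these 3 had a probe set with 1 gene here, and they were not analysed.

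The comparison asks which family members change in root meristems under miR396 overexpression. Of the 16 tested members, 5 passed limma's test (adjusted p below 0.05), or 31.2%, while 25.0% of all 11364 tested probe sets passed. The 2 that rose in 35S:miR396, scpl18 and SCPL45, are 12.5% of the members beside 12.7% of all tested probe sets. The 3 that fell, scpl46, scpl40 and scpl29, are 18.8% beside 12.3%. A passed change of at least 2-fold was found for scpl18 and scpl46, 12.5% of the members beside 4.19% of all. Of these, scpl46 met the filter only through its WT arrays, as described below. The share of calls in the family lay near that of the whole array, and the family moved in both directions. The median log2 fold change of the members was 0.16 beside -0.01 for all tested probe sets, and the median absolute log2 fold change was 0.42 beside 0.21. The members also spread more within groups (median pooled SD 0.34 beside 0.13), and the part of that spread in the larger absolute fold changes was not tested. Of the 16 members 11 had a positive and 5 a negative log2 fold change. SCPL34 (0.0029) and scpl25 (0.12) among the positive and scpl42 (-0.06) among the negative changed sign in other settings. The signs were not counted over all tested probe sets, so no lean can be read from them.

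**Figure D1:**
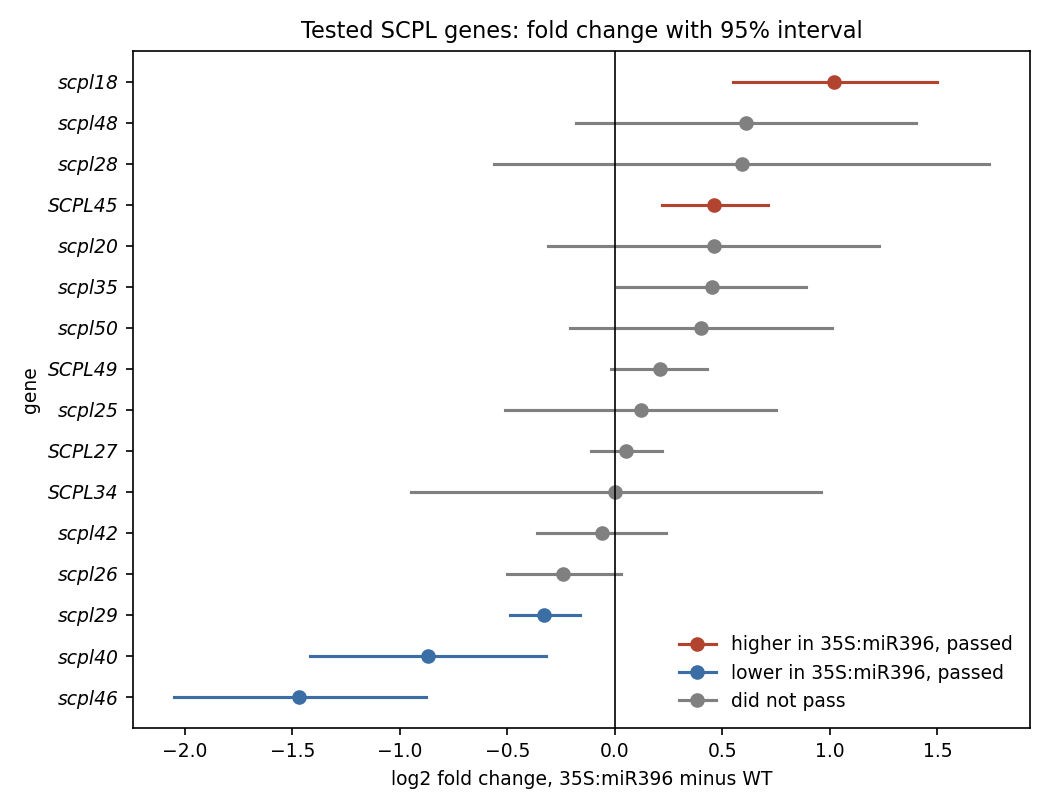
Log2 fold change of each tested SCPL gene, 35S:miR396 minus WT, as points with the 95% interval of limma's fit as lines. The intervals are not adjusted for the number of probe sets. Those of the 2 genes that rose and the 3 that fell lie off 0, as does that of scpl35 (0.01 to 0.89), which did not pass. Those of scpl28, SCPL34, scpl48 and scpl20 are wide.

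scpl18 carries a number in the range of the family (SCPL1 to SCPL19) that holds the known acyltransferases SNG1 and SNG2, and a role of its own is not given here. Its log2 values were 6.94, 6.46 and 7.00 in replicates 1, 2 and 3 of 35S:miR396, against 6.15, 5.59 and 5.60 in WT. Every array of 35S:miR396 lay above every array of WT, although replicate 2 of 35S:miR396 was only a little above replicate 1 of WT. The mean was 6.80 ± 0.29 in 35S:miR396 and 5.78 ± 0.32 in WT (SD, n = 3 each), a rise of 2.03-fold (log2 fold change 1.02 ± 0.20, SE; limma, adjusted p = 0.0142). The call was lost without replicate 3 of 35S:miR396 (0.92), without replicate 2 (0.93) or 3 (0.93) of WT, and with no filter on dim probe sets (1.02). Its adjusted p ran from 0.0017 to 0.0883 over the alternatives.

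scpl16, the other member here with a number in that range, stayed below the level needed for the test. Its log2 values were 2.44, 2.36 and 2.33 in 35S:miR396, against 3.28, 3.55 and 3.24 in WT. The groups did not overlap. The values in 35S:miR396 lay close to the lowest value of the table, 2.25, where GCRMA compresses both differences and spread. The SD of scpl16 was 0.05 in 35S:miR396 and 0.17 in WT. In the fit with no filter, where 4.14% of 22746 probe sets passed, scpl16 stood at -0.98 ± 0.09 (SE; limma, adjusted p = 0.026). The small SE rests in part on values near the floor, which limits the reading of that adjusted p. In that fit scpl16 and scpl29 were the members that passed.

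SCPL45 and scpl46 are neighbours in number and had opposite directions. SCPL45 had log2 values of 7.30, 7.59 and 7.46 in 35S:miR396, against 6.98, 6.89 and 7.10 in WT. The groups did not overlap, and the spread within each was narrow. Its mean was 7.45 ± 0.15 in 35S:miR396 and 6.99 ± 0.11 in WT (SD, n = 3 each), a rise of 1.38-fold (log2 fold change 0.46 ± 0.10, SE; limma, adjusted p = 0.0218). The call of SCPL45 was lost without replicate 3 of 35S:miR396 (0.46), without replicate 1 (0.46) or 2 (0.41) of WT and with no filter (0.46), and its adjusted p ran from 0.00316 to 0.0835 over the alternatives.

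scpl46 had the largest change among the tested members. Its log2 values were 3.28, 4.24 and 3.51 in 35S:miR396, against 5.04, 5.02 and 5.36 in WT. All WT arrays were above all 35S:miR396 arrays, and replicate 2 of 35S:miR396 was the nearest to WT. The mean was 3.67 ± 0.50 in 35S:miR396 and 5.14 ± 0.19 in WT (SD, n = 3 each), a fall of 2.77-fold (log2 fold change -1.47 ± 0.25, SE; limma, adjusted p = 0.0091). scpl46 is also the tested member nearest to the filter, with 4 arrays at or over a log2 value of 4, 1 of 35S:miR396 and 3 of WT. The other 15 tested members reached that value in all 6 arrays. scpl46 thus entered the test through WT, the group where it was high. A filter met in that way favours a fall, and the shares of falls and of 2-fold changes given above include scpl46. Just outside the filter lay scpl16 and scpl47, with highest values of 3.55 and 3.25. The call of scpl46 held without any single array, from -1.75 to -1.27, and was lost with no filter (-1.47, adjusted p = 0.0689). Over the alternatives its adjusted p ran from 0.000732 to that value.

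scpl40 was lower in 35S:miR396, with log2 values of 5.10, 5.88 and 5.77, against 6.42, 6.18 and 6.76 in WT. The groups did not overlap, and the gap between them was smaller than the range within either. The mean was 5.58 ± 0.42 in 35S:miR396 and 6.45 ± 0.29 in WT (SD, n = 3 each), a fall of 1.83-fold (log2 fold change -0.87 ± 0.24, SE; limma, adjusted p = 0.0364). Its call was the least stable of the 5. It was lost without replicate 1 (-0.63) or 3 (-0.96) of 35S:miR396, without each single WT array (at the smallest -0.71, without replicate 3), and with no filter (-0.87), with an adjusted p from 0.0236 to 0.165 over the alternatives.

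scpl29 had a small fall with little spread. Its log2 values were 8.30, 8.22 and 8.27 in 35S:miR396, against 8.64, 8.61 and 8.51 in WT. The groups did not overlap, and the pooled SD within groups, 0.06, was below that of all but 9.03% of the tested probe sets. The mean was 8.26 ± 0.04 in 35S:miR396 and 8.59 ± 0.07 in WT (SD, n = 3 each), a fall of 1.25-fold (log2 fold change -0.33 ± 0.07, SE; limma, adjusted p = 0.0176). It was the only one of the 5 that also passed with no filter (adjusted p = 0.0387). The call was lost without replicate 3 of 35S:miR396 (-0.33) and without replicate 1 (-0.30) or 2 (-0.32) of WT, and the adjusted p ran from 0.00355 to 0.0739 over the alternatives.

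**Figure D2:**
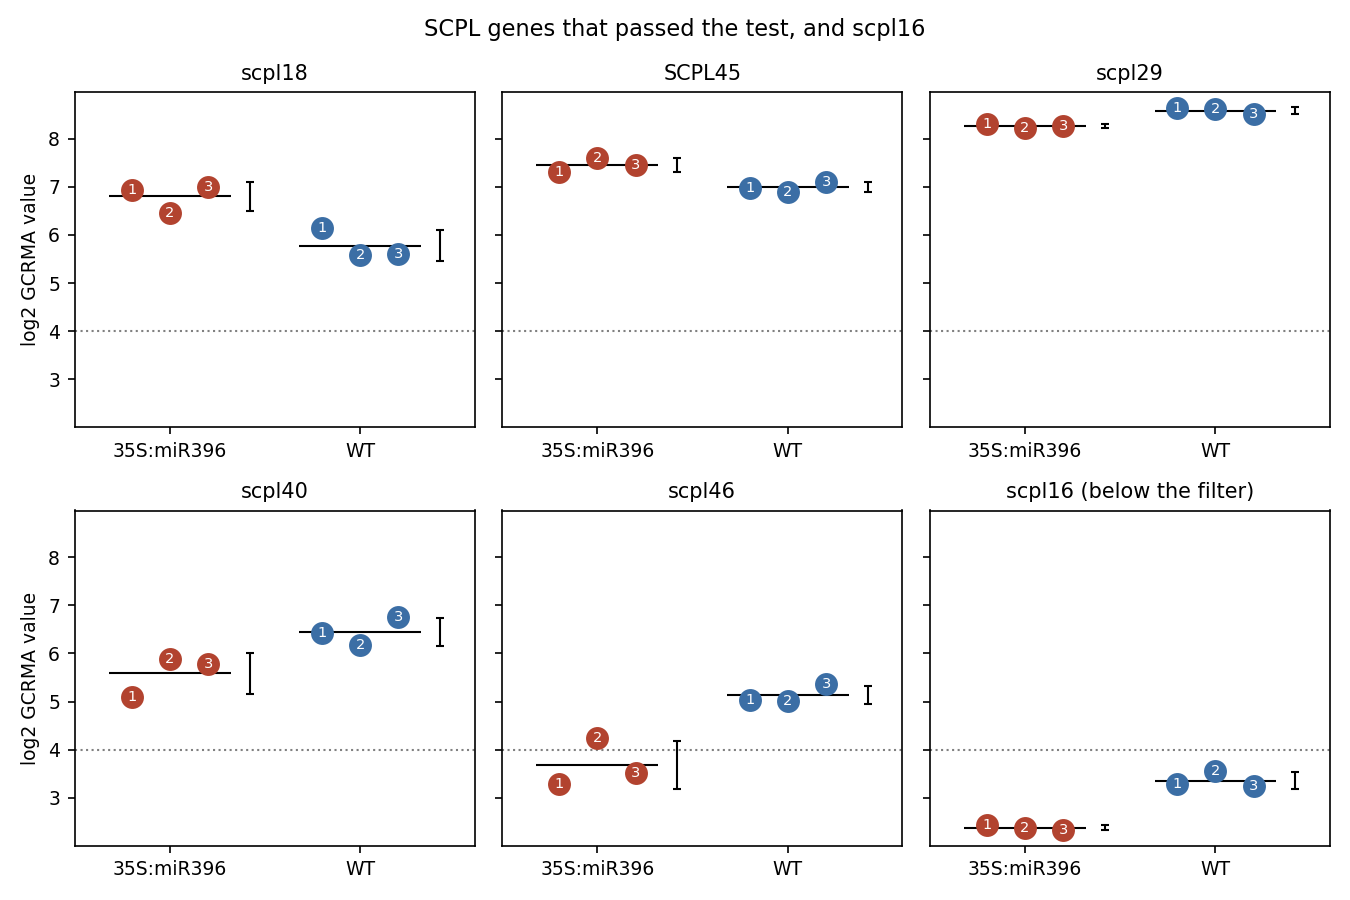
Log2 GCRMA values of the 5 SCPL genes that passed the test and of scpl16, by array, with the replicate number in each point, the group mean as a line and its SD (n = 3) as a bar. No gene shown has overlapping groups; the dotted line marks the log2 value of 4 used by the filter, below which all arrays of scpl16 and 2 arrays of scpl46 lie.

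The members related to carboxypeptidase Y, the vacuolar protease first known from yeast, were SCPL49, scpl48 and scpl47. SCPL49, which the gene table lists as carboxypeptidase Y, had log2 values of 9.22, 9.18 and 9.18 in 35S:miR396, against 8.79, 9.04 and 9.13 in WT. Its groups did not overlap, yet the lowest 35S:miR396 array and the highest WT array were nearly level. The difference did not pass (0.21, 95% interval -0.02 to 0.43; limma, adjusted p = 0.145). scpl48, a gene known as a marker of developmental cell death in Arabidopsis, the root cap included, had values of 7.71, 6.46 and 7.43 in 35S:miR396, against 6.49, 7.01 and 6.25 in WT. Replicate 2 of 35S:miR396 fell among the WT values while the other two lay above them. The difference of scpl48 did not pass over all arrays (0.61, 95% interval -0.18 to 1.40; limma, adjusted p = 0.212). scpl47 stayed below the filter, with values of 2.92, 2.92 and 2.92 in 35S:miR396 and 2.92, 3.10 and 3.25 in WT, and the same value came back in 4 of the 6 arrays, as at a floor.

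The spread between arrays of 1 group was wide for many members. The pooled SD within groups had a median of 0.34 over the 16 members and 0.13 over all tested probe sets, and 8 of the 16 members were at or over the 90th percentile of all tested probe sets. The widest were scpl28 (0.79, at the 99.4th percentile), SCPL34 (0.66, 98.8th), scpl48 (0.54, 97.6th), scpl20 (0.52, 97.3rd) and scpl25 (0.41, 95.1st). At the other end, SCPL27 had a pooled SD of 0.02, below that of all but 0.686% of tested probe sets. The family therefore spans nearly the whole range of array-to-array spread.

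**Figure D3:**
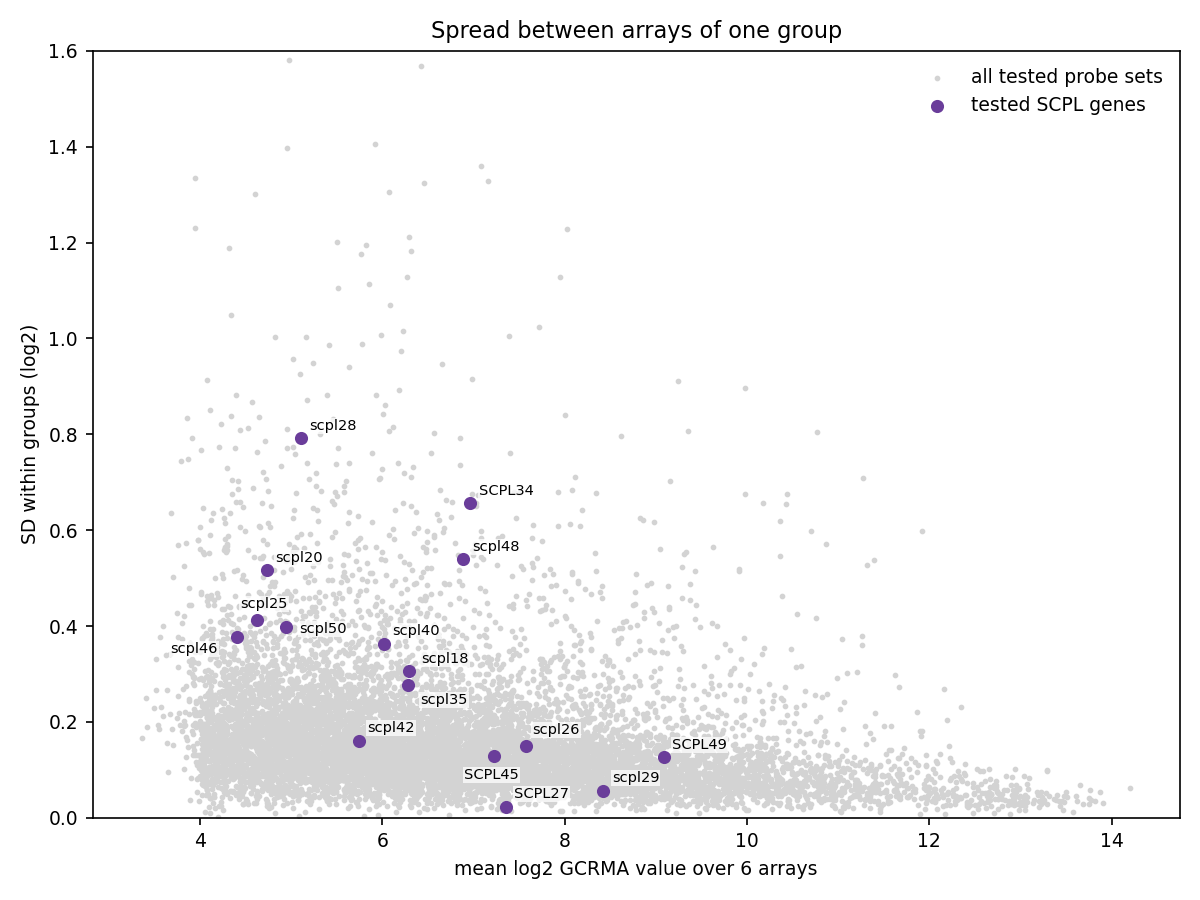
Pooled SD within groups against the mean log2 GCRMA value over 6 arrays, for all 11364 tested probe sets in grey and the 16 tested SCPL genes in purple. Most SCPL genes sit in the upper part of the cloud, with scpl28 at 0.79 and SCPL34 at 0.66, and SCPL27 at 0.02 sits at its lower edge; 2 other probe sets lie above the axis.

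The 5 members with the widest spread shared the array that was lowest in 35S:miR396. SCPL34 had log2 values of 7.51, 6.25 and 7.14 in 35S:miR396, against 7.37, 7.32 and 6.20 in WT. Replicate 2 of 35S:miR396 and replicate 3 of WT stood low together, and the group means were level (0.00, 95% interval -0.95 to 0.96; limma, adjusted p = 0.996). scpl28 had values of 5.90, 4.27 and 6.03 in 35S:miR396, against 5.05, 5.19 and 4.19 in WT. The same arrays were its lowest, and the difference did not pass (0.59, 95% interval -0.56 to 1.74; limma, adjusted p = 0.396). scpl25 had values of 5.0, 4.08 and 4.99 in 35S:miR396, against 4.71, 4.71 and 4.29 in WT, again with the lowest value of each group in those arrays (0.12, 95% interval -0.51 to 0.75; limma, adjusted p = 0.763). scpl20 had values of 5.44, 4.18 and 5.27 in 35S:miR396, against 4.21, 4.68 and 4.61 in WT. For scpl20 replicate 2 of 35S:miR396 was the lowest array of all, but in WT it was replicate 1 (0.46, 95% interval -0.31 to 1.23; limma, adjusted p = 0.324).

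Replicate 2 of 35S:miR396 was the lowest array of its group for 9 of 16 members (56.2%) and for 37.7% of all tested probe sets. In 6 members (37.5%), scpl25, scpl26, scpl28, scpl29, SCPL34 and scpl48, it was so together with replicate 3 of WT, as in 15.4% of all tested probe sets. This counts order alone. For scpl26 and scpl29 the 35S:miR396 arrays were nearly level (SD 0.01 and 0.04), so their order there means little. Replicate 2 of 35S:miR396 also lay nearest to WT on the first principal component of all tested probe sets, with a score of 11.3 where replicates 1 and 3 had 37.9 and 27.2 and WT arrays had -28.9 to -22.9. Without that array 8 of 16 members passed, 5 higher and 3 lower, where 33.6% of all tested probe sets did. The 3 added members were scpl28 (1.16, adjusted p = 0.028), scpl48 (0.98, adjusted p = 0.0203) and scpl20 (0.85, adjusted p = 0.0132), all higher in 35S:miR396 in limma's fit. In all 3 the array left out was the lowest of 35S:miR396, so leaving it out had to raise their means there. These added calls are therefore no separate evidence of a rise. The adjusted p of scpl28, scpl48 and scpl20 reached 0.744, 0.508 and 0.675 over the alternatives. Leaving out each other array gave fewer calls than the 5 over all arrays. There were 4 without replicate 1 of 35S:miR396 (14.1% of all tested probe sets passed then) and 1 without its replicate 3 (12.0%). Without replicates 1, 2 and 3 of WT there were 2 (11.4%), 1 (9.26%) and 4 (13.2%).

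AT4G04460 was the only gene of the root cap marker list of 6 with a probe set, and its values followed the same arrays. It had log2 values of 7.66, 6.26 and 7.32 in 35S:miR396, against 7.23, 7.51 and 6.34 in WT, so replicate 2 of 35S:miR396 and replicate 3 of WT were again the low ones. That order was not particular to AT4G04460. Every other tested gene of a list of proteases of other families, described below, had it too. The groups of AT4G04460 overlapped (0.05 ± 0.42, SE; limma, adjusted p = 0.935). The part of root cap tissue in the values of the SCPL genes was not tested, and in whole meristems fewer cells of a type and less RNA per cell cannot be told apart.

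**Figure D4:**
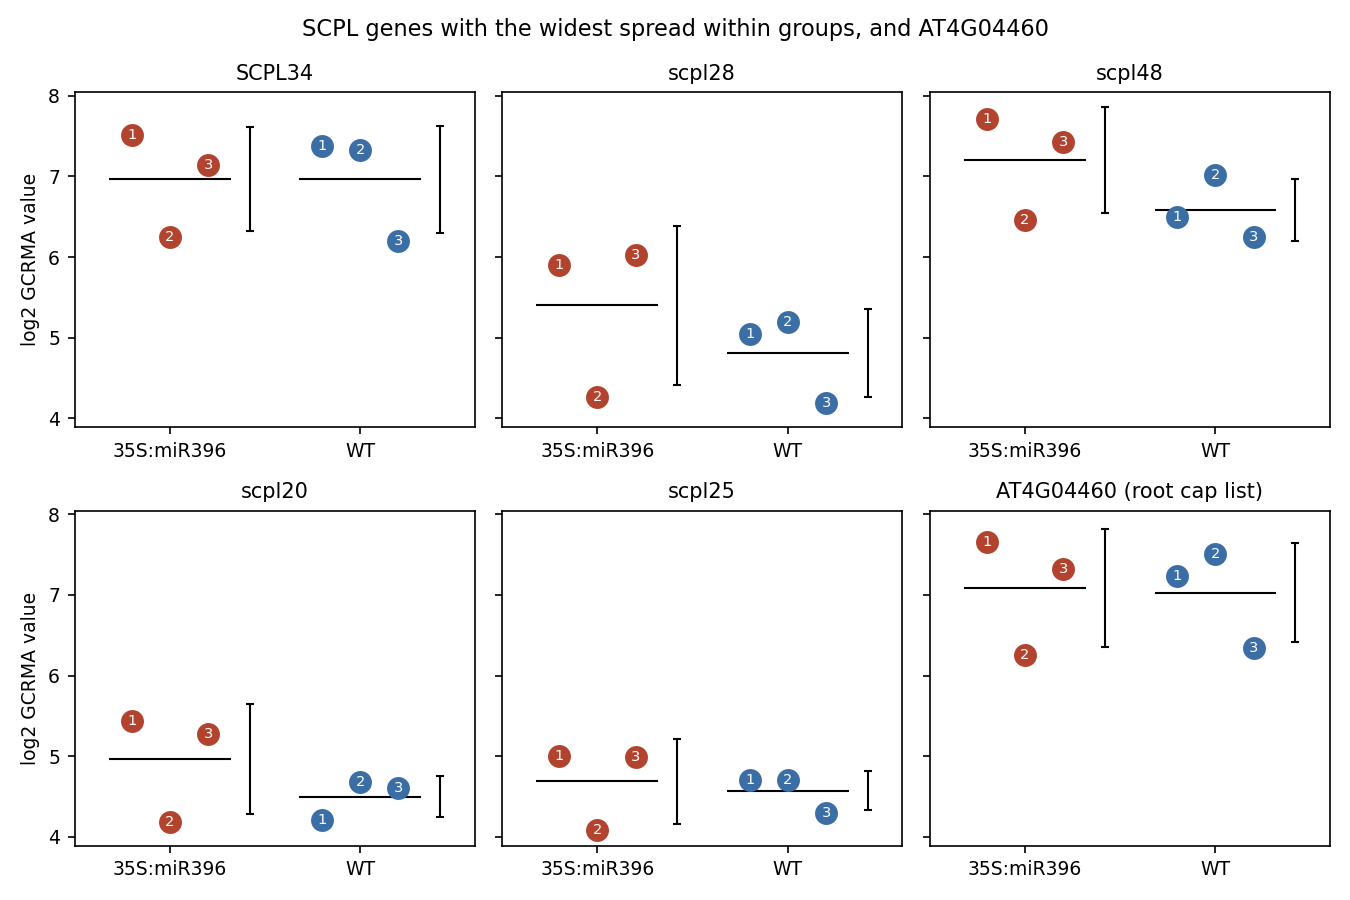
Log2 GCRMA values by array of the 5 SCPL genes with the widest spread within groups and of AT4G04460 from the root cap marker list, with the replicate number in each point, the group mean as a line and its SD (n = 3) as a bar. Replicate 2 is the lowest 35S:miR396 array in every panel, and replicate 3 is the lowest WT array in all but scpl20.

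The remaining tested members did not pass. scpl35 came nearest, with values of 6.65, 6.59 and 6.29 in 35S:miR396, against 6.42, 5.74 and 6.02 in WT (0.45, 95% interval 0.01 to 0.89; limma, unadjusted p = 0.0451 and adjusted p = 0.115). Its groups overlapped through replicate 1 of WT. scpl26 had values of 7.46, 7.45 and 7.46 in 35S:miR396, against 7.86, 7.77 and 7.46 in WT, so replicate 3 of WT stood level with 35S:miR396. Its difference over all arrays was -0.24 (95% interval -0.50 to 0.03; limma, adjusted p = 0.159). It passed in limma's fit without that WT array (-0.36, adjusted p = 0.0448) and with array weights (-0.28, adjusted p = 0.0427), where 41.8% of all tested probe sets passed. That array was the lowest of WT for scpl26, so leaving it out had to enlarge the fall. Array weights gave it the smallest weight in WT (0.731). These passes are therefore no separate evidence of a fall. The adjusted p of scpl26 reached 0.388 over the alternatives. scpl26 and scpl28 are next to each other in the gene table, and their log2 fold changes had opposite signs; neither passed.

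scpl50 had values of 5.12, 5.14 and 5.18 in 35S:miR396, against 4.14, 4.84 and 5.26 in WT. Its 35S:miR396 arrays were nearly equal while the WT arrays ranged widely (0.40, 95% interval -0.21 to 1.01; limma, adjusted p = 0.286). The difference of scpl50 was 0.10 without replicate 1 of WT and 0.65 without its replicate 3, and did not pass in either fit. scpl42 had values of 5.85, 5.82 and 5.48 in 35S:miR396, against 5.87, 5.67 and 5.79 in WT, with groups that overlapped (-0.06, 95% interval -0.36 to 0.24; limma, adjusted p = 0.752). SCPL27 had values of 7.37, 7.40 and 7.37 in 35S:miR396, against 7.36, 7.31 and 7.31 in WT. The groups of SCPL27 did not overlap, but the difference was small (0.05, 95% interval -0.11 to 0.22; limma, adjusted p = 0.61). In all, the groups did not overlap for 7 of 16 tested members (43.8%), the 5 that passed with SCPL27 and SCPL49, and for 45.7% of all tested probe sets.

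Of the 13 members below the filter, scpl16 and scpl47 are given above, and the other 11 lay within 0.1 of the table's lowest value in all 6 arrays. These were scpl21, scpl22, scpl23, scpl30, scpl31, SCPL32, scpl33, scpl38, scpl41, SCPL43 and scpl44, with values of 2.25 to 2.28. GCRMA sets dim probe sets to such a floor, so neither presence nor difference can be read for them. scpl22 and scpl23, which are next to each other in the gene table, were both at it. The 2 probe sets shared between genes, one for scpl36 and scpl37 and one for scpl39 and AT3G56540, had a value of 2.25 in every array.

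The genes whose levels most resembled the largest rise and the largest fall were taken by Pearson correlation over the 6 arrays among the other 6228 tested probe sets with 1 gene. As a description of 2 groups of 3, r was 0.997 for AT4G22820, 0.996 for AT1G68660 and 0.992 for AT5G50230 with scpl18, and 135 of the 6228 exceeded 0.95. AT4G22820 had log2 values of 7.57, 7.04 and 7.48 in 35S:miR396, against 6.74, 6.20 and 6.20 in WT. Its low replicate 2 of 35S:miR396 and high replicate 1 of WT match scpl18. The choice by correlation over these same arrays brings such a match with it, so it is no separate result. With scpl46, r was 0.998 for GPDHp, a plastid glycerol-3-phosphate dehydrogenase by the gene table, 0.997 for AT5G14580 and 0.995 for AT4G34290, and 327 exceeded 0.95. GPDHp had values of 8.35, 8.67 and 8.38 in 35S:miR396, against 8.93, 8.92 and 9.02 in WT. Its replicate 2 of 35S:miR396 was nearest to WT as for scpl46, again by the choice.

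Proteases of other families that act in the vacuole or are secreted gave a list of 18 genes, of which 11 had a probe set and 6 were tested. AT4G04460, described above from the root cap list, is also among the 6. Of these 6, 2 rose, none fell and 4 did not pass, where 25.0% of all tested probe sets passed and 12.7% rose, with a median log2 fold change of 0.45 beside -0.01 for all tested probe sets. GAMMA-VPE, a vacuolar processing enzyme, which matures vacuolar proteins, had values of 6.34, 5.69 and 6.26 in 35S:miR396, against 5.17, 5.23 and 5.04 in WT. It rose 1.92-fold (0.94 ± 0.18, SE; limma, adjusted p = 0.0126) with no overlap. AT3G45310 had values of 9.34, 8.78 and 9.04 in 35S:miR396, against 8.21, 7.92 and 7.64 in WT, and rose 2.19-fold (1.13 ± 0.18, SE; limma, adjusted p = 0.00768). In every tested gene of the list, replicate 2 was the lowest 35S:miR396 array, as in the SCPL genes with wide spread. Replicate 3 was also the lowest WT array in each. Both held together in 15.4% of all tested probe sets, and this counts order alone. Without replicate 2 of 35S:miR396, 5 of the 6 passed, where 33.6% of all tested probe sets did. Leaving out a low array raises the mean of its group, so that count is no separate evidence of a rise. With no filter none of the 6 passed limma's test, and 3 had an unadjusted p under 0.05.

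The pathways in which known SCPL enzymes act could be followed in few genes. Of 23 phenylpropanoid and sinapate genes, 5 had a probe set and 3 were tested, HCT, ALDH2C4 and UGT84A4, and none of the 3 passed limma's test or had an unadjusted p under 0.05. ALDH2C4, the aldehyde dehydrogenase of sinapate synthesis, had the smallest p (-0.22 ± 0.15, SE; limma, adjusted p = 0.311). Of 7 flavonoid genes DFR alone, and of 20 brassinosteroid genes BRL1 alone, had a probe set, and neither reached the filter. BRL1, a brassinosteroid receptor, had values of 2.79, 2.87 and 3.30 in 35S:miR396, against 2.25, 2.36 and 2.32 in WT, close to the floor.

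Tissue markers are described as far as the annotation allowed. Their lists were chosen with earlier results of these data known and few markers had a probe set, so they cannot check the tissue. Of 9 root meristem markers 2 had a probe set, BBM and AGL42, and both were tested and rose, as 12.7% of all tested probe sets did, with a summed log2 level of 13.9 to 14.5 in 35S:miR396 and 11.6 to 12.3 in WT. BBM was 2.83-fold higher in 35S:miR396 (limma, adjusted p = 0.00122) and AGL42 1.61-fold higher (adjusted p = 0.0163), and the call of AGL42 was lost with no filter (adjusted p = 0.0838). Of 7 root hair markers 2 had a probe set, EXPA7 and EXPA18, with values of at most 2.38 in 35S:miR396 and 2.25 in WT. No probe set with 1 gene was found for the lists of the Casparian strip endodermis, xylem, phloem and green tissue, nor for the 7 GRF genes that miR396 targets, so the genotype rests on the labels. The part of the rise in meristem markers in the values of the SCPL genes was not tested.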

How the data were processed

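The deposited values are log2 signals, 1 per probe set, and the submitters' processing notes name GCRMA as the authors' method; its version is not given in the sources used here. RNA was labelled from the 3' end, per the labels' protocols. That the values are log2, with a floor, was read from the values (2.25 to 14.28). Of 22810 probe sets 64 controls were left out, and those with a log2 value of at least 4 in at least 3 arrays (11364) were fitted with limma 3.58.1 in R 4.3.3 (lmFit; eBayes with a trend; no block), two-sided, with Benjamini-Hochberg adjustment over all of them. A call is an adjusted p under 0.05. The fit was tested on simulated arrays.

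The platform annotation gave 1 gene for 13513 probe sets and several for 503, and listed none for 8730 others, controls aside. A list gene took its probe set with the highest mean. Every SCPL probe set is named; of other lists, up to 4 called members or the one with the smallest p; and the 3 probe sets most correlated with the largest rise and fall. Members and lists were chosen with earlier results of these data known. The labels do not say that a shared replicate number marks a shared day or batch, so the numbers were not taken to pair the arrays. Deviations of same-numbered arrays from their group means had correlations of 0.4001, -0.0918 and 0.139, which do not settle a pairing.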

Additional observations from a re-analysis of the deposited data

How the results depend on the processing

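Of the 5 calls, none was lost with no trend, a robust prior, a further quantile normalization, median centring, array weights or the replicate block (replicate number as a term, 2844 calls over all probe sets against 2838 without it, and 5 members in both). Same-numbered arrays did not all correlate best with each other. With a filter at a log2 value of 6, 4 of the tested members passed and scpl46 was not among those fitted. With no filter 941 probe sets passed, and of the 16 tested members 1 passed, 0 higher (limma; 2 at an unadjusted p under 0.05) and 1 lower; the fit then holds 22746 probe sets. With array weights 4749 probe sets passed. Without single arrays the calls ran from 1052 to 3813 over all probe sets and from 1 to 8 over the members, 0 to 5 higher and 1 to 3 lower; the 0 arose without replicate 3 of 35S:miR396 or replicate 2 of WT (limma; 3 and 2 at an unadjusted p under 0.05). The sign of SCPL34, which had level groups, turned with a further quantile normalization (-0.01), median centring (-0.0044) and array weights (-0.05), and its value ran from -0.38 to 0.36 without single arrays. Those of scpl25 (-0.03 to 0.43) and scpl42 (-0.13 to 0.06) turned too. The cause was not tested.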
